A study of Rattus norvegicus with 17 samples.

Results

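The unfolded protein response (UPR) was followed in the rat meibomian gland (MG) through 10 genes chosen by name, namely Hspa5, Hsp90b1, Pdia4, Sdf2l1, Dnajb9, Herpud1, Xbp1, Atf6, Atf4 and Ddit3. All 10 were listed among the 17251 genes of the table, and all 10 were among the 13105 genes tested. RNA from the dissected MG of 17 female rats aged 10 to 12 weeks was sequenced, with 1 library per rat. Without UVB there were 4 rats in the Control WT and 5 in the Control P1.hMR group, and with UVB 3 in the UVB WT and 5 in the UVB P1.hMR group. P1.hMR rats are Sprague-Dawley transgenic rats that carry the human mineralocorticoid receptor (MR) gene NR3C2 under its own proximal P1 promoter, which drives it in every tissue that expresses MR rather than in the MG alone, and WT rats lack the transgene. UVB rats had their eyelids irradiated daily for 5 days before the glands were taken, and control rats were not irradiated. The comparisons ask how the MG responds to UVB in this model of ocular rosacea, and whether MR overexpression changes that response.

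As background, the UPR is the set of signals that the endoplasmic reticulum (ER) sends when unfolded proteins build up in it. It has 3 sensors. IRE1 splices the mRNA of Xbp1, ATF6 is cut to release a transcription factor, and PERK slows translation while the mRNA of Atf4 is translated more. XBP1 and ATF6 raise ER chaperones and the machinery that removes misfolded proteins, and ATF4 raises genes of amino acid supply and, under lasting stress, Ddit3, which encodes the transcription factor CHOP and is linked to cell death. Secretory cells use the pathway heavily, and meibocytes carry an extensive smooth ER in which meibum lipids are made. Gene-level RNA values do not separate spliced from unspliced Xbp1, cut from whole ATF6, or the translation of Atf4.

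Expression is given in TPM, the share of each transcript in the library scaled to a fixed total, which takes transcript length into account and keeps no sequencing depth. Each rat had 12372 to 12737 genes at 1 TPM or more. NR3C2, the human transgene, was listed at 0 TPM in every WT rat, and every P1.hMR rat had 5.31 to 9.31 TPM of it. All 10 meibocyte markers were above 1 TPM in each group, with Scd between 23993.86 and 31197.86 TPM. Keratinocyte, fibroblast, hair and skeletal muscle markers were present too. Whether the meibocyte markers tell the MG from other lipid-producing glands of the eyelid was not tested. The samples were bulk tissue, in which fewer cells of a type and less RNA per cell cannot be told apart. All 13105 genes were tested in 1 limma model on log2(TPM + 1). Called genes had an adjusted p (Benjamini-Hochberg) under 0.05 together with a log2 fold change of 0.5 or more in size. Log2 fold changes are on that scale, which understates changes at low levels.

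The members spanned a wide range of levels. By median TPM over the 17 rats, Atf4 stood first at 328.91 TPM and Hspa5, which encodes the ER chaperone BiP, second at 314.98 TPM, and these levels lie at percentiles 97.1 and 96.9 of the tested genes. Atf4 was above Hspa5 in 11 of 17 rats, so their order did not hold beyond the spread. Xbp1 followed at 162.97 TPM and Hsp90b1, which encodes the chaperone GRP94, at 151.42 TPM, with Xbp1 higher in 15 of 17 rats. Pdia4, a protein disulfide isomerase of the ER, had 61.94 TPM, Herpud1, an ER membrane protein of the degradation machinery, 48.05 TPM, and Ddit3 30.03 TPM. The 3 lowest were Atf6 at 24.08 TPM, Sdf2l1, an ER protein that works with BiP, at 21.61 TPM and Dnajb9, an ER co-chaperone of BiP, at 10.64 TPM, which is percentile 40.1. Atf6 was above Sdf2l1 in 12 of 17 rats, while each other neighbouring pair in this order kept its order in all 17 rats. The spread over all rats was smallest for Xbp1, whose highest value was 1.12 times its lowest, and largest for Sdf2l1, at 2.12 times.

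**Figure D1:**
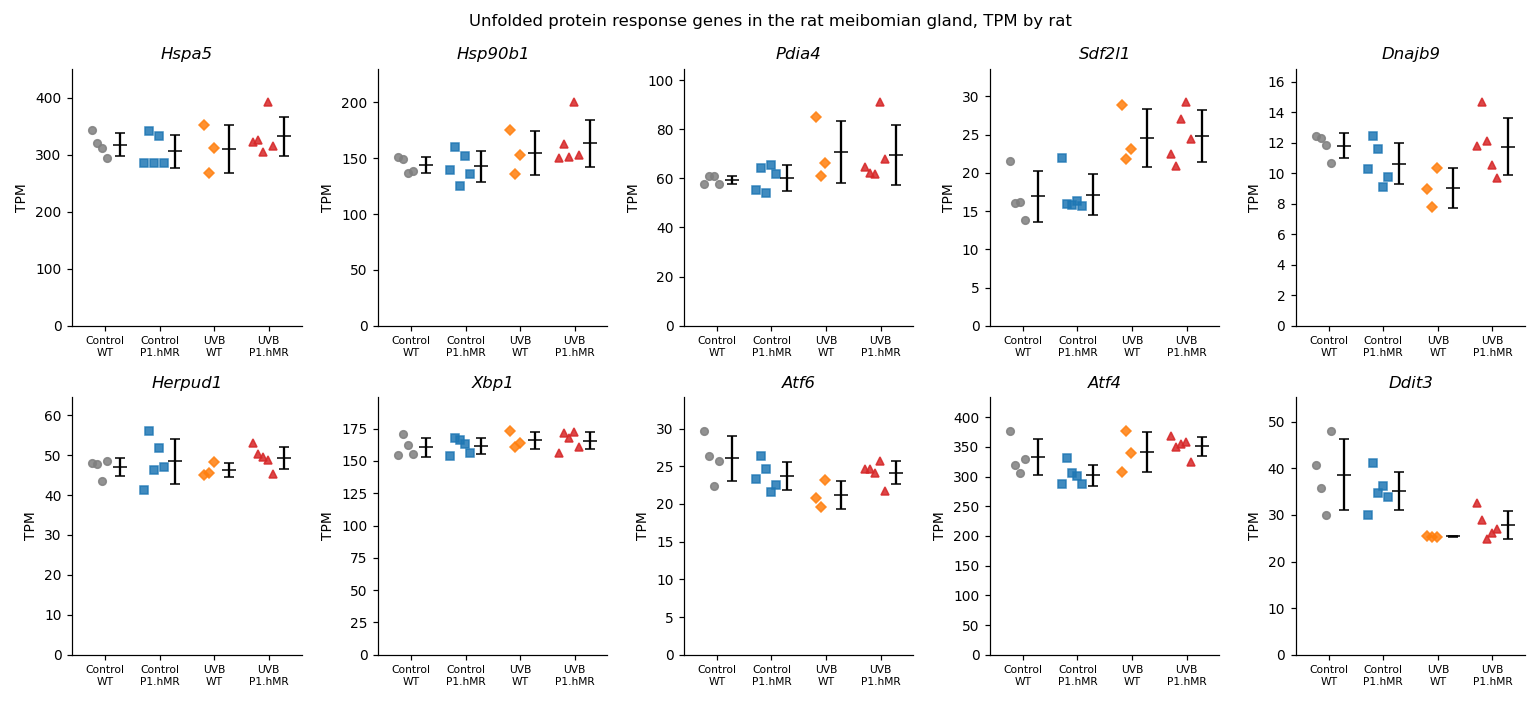
TPM of each member (vertical axes from 0, a separate scale per gene) in each rat of the 4 groups (horizontal axes). Points are rats, and black bars give the mean ± SD of each group. In WT rats, Sdf2l1 lies higher and Ddit3 and Dnajb9 lie lower after UVB without overlap, while the 4 groups overlap for Hspa5, Hsp90b1, Xbp1 and Herpud1.

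The promoters of the members are shown because chaperone genes of the UPR are known for a shared element, the ER stress response element (ERSE), written here as CCAAT, any 9 bases and CCACG. It was searched on both strands from 250 bases before to 50 bases after the start of each gene. RefSeq (GRCr8) gave this window for 9 of the 10 members, all but Atf6. The full element was in 22 of 33469 promoters, or 0.0657%, and 3 of the 9 members were among them. With -1 as the last base before the start, Hspa5 held it at positions -43 to -25, Xbp1 at -65 to -47, and Hsp90b1 at -176 to -158 and, on the reverse strand, at -72 to -54. The 22 promoters belonged to 21 genes, of which 6 others were on a wider list of UPR genes, namely Calr, Canx, Creld2, Dnajc3, Derl3 and Ero1b. The 250 bases before the start are printed 5′ to 3′ along each gene, with the ERSE in capitals, for the members with the element, for Pdia4, which varied with Hspa5 and Hsp90b1 between rats, and for Sdf2l1 and Ddit3, which changed after UVB.
Hspa5, chr3:38452766-38453015, plus strand: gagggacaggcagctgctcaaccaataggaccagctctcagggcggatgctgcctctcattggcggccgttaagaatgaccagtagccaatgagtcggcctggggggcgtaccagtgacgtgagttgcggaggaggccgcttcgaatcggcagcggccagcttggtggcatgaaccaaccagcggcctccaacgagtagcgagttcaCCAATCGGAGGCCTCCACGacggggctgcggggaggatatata
Hsp90b1, chr7:23012294-23012543, minus strand: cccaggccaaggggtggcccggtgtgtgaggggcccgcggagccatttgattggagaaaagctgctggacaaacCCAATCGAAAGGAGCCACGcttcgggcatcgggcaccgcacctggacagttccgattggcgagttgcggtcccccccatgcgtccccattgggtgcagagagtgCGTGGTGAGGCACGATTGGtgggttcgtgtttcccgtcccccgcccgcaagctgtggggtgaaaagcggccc
Xbp1, chr14:84604373-84604622, plus strand: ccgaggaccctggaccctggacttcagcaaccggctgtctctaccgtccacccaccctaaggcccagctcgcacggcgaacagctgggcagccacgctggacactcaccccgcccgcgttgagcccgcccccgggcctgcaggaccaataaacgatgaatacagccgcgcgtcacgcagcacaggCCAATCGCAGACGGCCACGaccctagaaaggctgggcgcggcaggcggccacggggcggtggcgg
Pdia4, chr4:78153192-78153441, minus strand: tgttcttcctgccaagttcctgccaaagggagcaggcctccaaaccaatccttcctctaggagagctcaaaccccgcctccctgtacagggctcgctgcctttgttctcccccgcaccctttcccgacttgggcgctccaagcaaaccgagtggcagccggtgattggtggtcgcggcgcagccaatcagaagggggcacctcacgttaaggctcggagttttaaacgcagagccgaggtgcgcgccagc
Sdf2l1, chr11:97376628-97376877, plus strand: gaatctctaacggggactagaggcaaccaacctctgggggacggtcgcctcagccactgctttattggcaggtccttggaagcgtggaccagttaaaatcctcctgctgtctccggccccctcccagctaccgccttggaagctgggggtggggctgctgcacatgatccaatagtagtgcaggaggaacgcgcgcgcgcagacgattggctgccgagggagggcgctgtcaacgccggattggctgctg
Ddit3, chr7:65001445-65001694, plus strand: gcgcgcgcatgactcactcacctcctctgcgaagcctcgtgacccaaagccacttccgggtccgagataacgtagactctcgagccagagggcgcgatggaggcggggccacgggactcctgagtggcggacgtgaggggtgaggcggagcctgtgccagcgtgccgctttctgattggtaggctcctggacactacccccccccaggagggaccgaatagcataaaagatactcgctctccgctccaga

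Shorter elements were less selective. The second part of the ERSE, CCACG, was in all 9 members' windows and in 31.6% of all promoters, and every full ERSE contains it. The XBP1 core ACGTGG, which overlaps the reverse complement of CCACG, was in the windows of Dnajb9 and Herpud1 and in 7.84% of promoters, and both matches were on the reverse strand. The core GACGTG was in the windows of Hspa5 and Ddit3 and in 6.31% of promoters. The element TGATGNAAT, bound by dimers of C/EBP proteins and ATF4, was in 0 of the 9 windows and in 1.09% of promoters. These are matches of letters and not measured binding. Bases farther upstream than this window and other forms of the ERSE were not searched, so a member without a match may still hold such an element.

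After UVB exposure, a partner of BiP rose in both genotypes. The gene for CHOP fell past the fold change threshold in WT rats and by less than it in P1.hMR rats. Neither Hspa5 nor Hsp90b1 passed the test. Sdf2l1 rose, with a mean of 16.9 ± 3.31 TPM in Control WT rats (SD, n = 4) and of 24.6 ± 3.74 TPM in UVB WT rats (SD, n = 3). Ddit3 fell, with means of 38.7 ± 7.63 TPM and 25.4 ± 0.135 TPM in the same groups. Sdf2l1 also rose in P1.hMR rats, where its mean was 17.1 ± 2.7 TPM without and 24.8 ± 3.4 TPM with UVB (SD, n = 5 each). In WT rats 2 of 10 members were called, beside 7.91% of all tested genes. The called member that rose stands beside 3.92% of genes called higher, and the called member that fell beside 3.98% called lower. In P1.hMR rats 1 of 10 members was called, beside 10.8% of all tested genes, 5.05% higher and 5.71% lower, which is a share near the background. For the mean of the 2 responses 1 of 10 members was called, beside 9.48% of all genes, 4.6% higher and 4.88% lower. At an adjusted p under 0.05 without the fold change threshold, 4, 3 and 4 members passed in WT, in P1.hMR and for the mean response, beside 21.5%, 39.1% and 47.2% of all tested genes. The median log2 fold change of the members was 0.008 in WT, 0.123 in P1.hMR and 0.04 for the mean response, beside 0.005, -0.016 and -0.007 over all tested genes.

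Sdf2l1 was measured at 21.61, 16.08, 16.13 and 13.82 TPM in Control WT and at 28.83, 21.81 and 23.06 TPM in the 3 UVB WT rats. The 2 groups did not overlap, although the highest control rat lay just under the lowest UVB rat. In Control P1.hMR rats it was at 21.94, 15.9, 15.82, 16.3 and 15.67 TPM, and in UVB P1.hMR rats at 22.41, 20.86, 27.08, 29.25 and 24.47 TPM. Here 4 of the 5 control rats lay close together and rat 1 lay above the lowest UVB rat, so the groups overlapped. The log2 fold change was 0.52 in WT (standard error 0.15, adjusted p = 0.0197, limma) and, for P1.hMR rats, 0.51 (standard error 0.12, adjusted p = 0.00368, limma). The mean of both was 0.52, a 1.43-fold rise (standard error 0.10, adjusted p = 0.000387, limma). Since these values sit at the fold change threshold, single rats decided the call. In WT the log2 fold change was 0.44 without Control WT rat 4 (adjusted p = 0.0601, limma) and 0.40 without UVB WT rat 1 (adjusted p = 0.0946, limma), and with only the WT groups in the fit the adjusted p was 0.0605 (limma). In P1.hMR it was between 0.45 and 0.50 without Control P1.hMR rat 2, 3, 4 or 5 or UVB P1.hMR rat 3 or 4, with an adjusted p of 0.0114 or less from limma in each case. The mean response was 0.47, 0.46, 0.4998 and 0.49 without Control WT rat 4, UVB WT rat 1, UVB P1.hMR rat 3 and UVB P1.hMR rat 4, again under the threshold of 0.5.

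Ddit3 was at 40.81, 35.87, 30.03 and 48.03 TPM in Control WT rats and at 25.52, 25.25 and 25.38 TPM in UVB WT rats. The 3 UVB rats were nearly equal and all lay below the 4 scattered control rats. In P1.hMR rats it was at 29.89, 41.09, 34.71, 36.29 and 33.84 TPM without UVB and at 32.52, 29.0, 24.87, 26.16 and 26.99 TPM with UVB, where the groups overlapped through UVB P1.hMR rat 1 and Control P1.hMR rat 1. The log2 fold change was -0.57 in WT (standard error 0.13, adjusted p = 0.00539, limma). Without Control WT rat 4, the highest of all rats, it was -0.46 (adjusted p = 0.0144, limma), which is short of the fold change threshold. In P1.hMR rats it was -0.32 (standard error 0.11, adjusted p = 0.023, limma) and for the mean response -0.45 (standard error 0.08, adjusted p = 0.00037, limma), both short of the threshold too. Without Control WT rat 3, the mean response was -0.50 and was called (adjusted p = 7.1e-05, limma).

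The 2 large chaperones did not pass the test in either genotype. Hspa5 was at 342.48, 321.11, 312.31 and 293.98 TPM in Control WT and at 351.09, 266.96 and 311.6 TPM in UVB WT rats. In P1.hMR rats it was at 285.66, 340.73, 284.58, 332.61 and 285.37 TPM without UVB and at 321.56, 326.45, 305.26, 392.06 and 314.98 TPM with UVB. The groups overlapped throughout, and the lowest and the next highest of the 17 values were both from UVB WT rats. The log2 fold change was -0.04 in WT, with a 95% interval from -0.25 to 0.17, and 0.12 in P1.hMR rats, with an interval from -0.06 to 0.29. Hsp90b1 had log2 fold changes of 0.09 in WT (interval from -0.12 to 0.31) and 0.19 in P1.hMR rats (interval from 0.01 to 0.37, adjusted p = 0.0871, limma). It ranged from 125.6 to 159.96 TPM over the control rats of both genotypes and from 135.69 to 200.32 TPM over the UVB rats.

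Pdia4 was at 57.83, 60.95, 60.86 and 57.72 TPM in Control WT and at 84.9, 60.87 and 66.22 TPM in UVB WT rats. Its log2 fold change for the mean response was 0.21 (standard error 0.08, adjusted p = 0.0374, limma), under the fold change threshold. Within each genotype limma gave an adjusted p of 0.188 for WT and of 0.146 for P1.hMR rats. The highest Pdia4 values after UVB were in UVB WT rat 1 and UVB P1.hMR rat 4, at 84.9 and 91.01 TPM, and the other UVB rats lay between 60.87 and 67.9 TPM.

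Dnajb9 and Atf6 had lower values after UVB in WT rats, by less than the fold change threshold. Dnajb9 was at 12.41, 12.33, 11.88 and 10.64 TPM in Control WT and at 8.99, 7.77 and 10.34 TPM in UVB WT rats, with no overlap. In P1.hMR rats it was at 10.29, 12.44, 11.56, 9.11 and 9.73 TPM without UVB and at 11.77, 14.66, 12.1, 10.54 and 9.68 TPM with UVB, and the groups overlapped. The WT log2 fold change was -0.36 (standard error 0.12, adjusted p = 0.0486, limma), and that of P1.hMR rats 0.13 (standard error 0.10, adjusted p = 0.34, limma). Atf6 was at 29.68, 26.36, 22.37 and 25.76 TPM in Control WT and at 20.77, 19.58 and 23.2 TPM in UVB WT rats, where Control WT rat 3 lay within the UVB range. Its log2 fold change was -0.28 in WT (standard error 0.09, adjusted p = 0.0306, limma) and 0.03 in P1.hMR rats (standard error 0.07, adjusted p = 0.794, limma). Neither gene was called.

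Atf4 had a log2 fold change of 0.04 in WT (standard error 0.08, adjusted p = 0.778, limma) and of 0.22 in P1.hMR rats (standard error 0.06, adjusted p = 0.0116, limma), the latter under the fold change threshold. It was at 286.8, 330.76, 305.43, 300.61 and 286.96 TPM in Control P1.hMR and at 367.54, 349.29, 354.51, 357.99 and 325.37 TPM in UVB P1.hMR rats. These groups overlapped only through Control P1.hMR rat 2 and UVB P1.hMR rat 5. Xbp1 and Herpud1 did not pass the test in either genotype. Xbp1 had log2 fold changes of 0.05 in WT (interval from -0.06 to 0.15) and 0.04 in P1.hMR rats (interval from -0.05 to 0.12), and Herpud1 of -0.02 (interval from -0.19 to 0.15) and 0.03 (interval from -0.11 to 0.17). Quantile normalization turned the sign of Xbp1 and Atf4 in WT and of Hspa5 and Xbp1 for the mean response, to -0.002, -0.0304, -0.0046 and -0.0005 in that order.

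**Figure D2:**
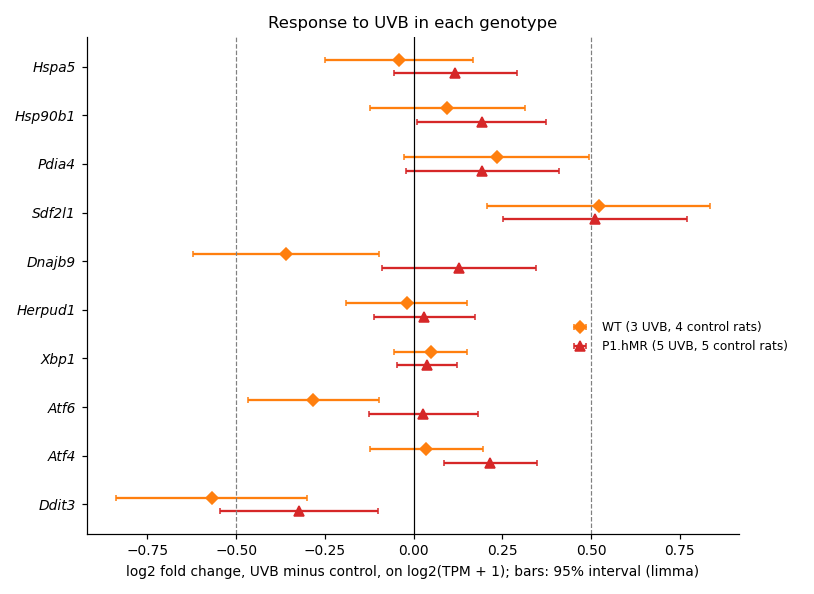
Log2 fold change of each member after UVB on the log2(TPM + 1) scale (horizontal axis), in WT rats (orange diamonds) and P1.hMR rats (red triangles), with 95% intervals from limma; dashed lines mark the threshold of 0.5. Sdf2l1 lies at 0.52 and 0.51, Ddit3 at -0.57 and -0.32, and the intervals of Hspa5, Xbp1, Herpud1 and Pdia4 cover 0 in both genotypes.

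Groups without overlap were counted for every tested gene as well. Between UVB WT and Control WT rats, 3 of 10 members did not overlap, Sdf2l1 being higher and Ddit3 and Dnajb9 lower, beside 26.6% of all tested genes. Between UVB P1.hMR and Control P1.hMR rats 0 of 10 members were without overlap, beside 27.2% of genes, and between all 8 UVB and all 9 control rats 0 of 10, beside 10.8%. The WT share is near the background, and the others are below it.

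Other markers moved with UVB as well. The summed level of the 10 meibocyte markers ran from 47271 to 57111 TPM in Control WT and from 43282 to 50291 TPM in UVB WT rats, and from 46218 to 52014 TPM in Control P1.hMR and from 41098 to 48929 TPM in UVB P1.hMR rats. The 5 matched keratinocyte markers of 7 summed to between 11629 and 14045 TPM in Control WT and between 13773 and 16586 TPM in UVB WT rats. In P1.hMR rats they summed to between 11961 and 13225 TPM without and between 12318 and 17327 TPM with UVB, with overlap. The 8 markers of hair shaft and root sheath summed to between 905 and 1173 TPM in Control WT rats. In UVB WT rats they summed to between 337 and 907 TPM, and the groups overlapped by a single UVB rat. In P1.hMR rats the hair sums ran from 734 to 1411 TPM without and from 467 to 757 TPM with UVB, and overlapped too. Macrophage, fibroblast, skeletal muscle and serous gland sums overlapped between UVB and control rats in both genotypes. The 4 matched melanocyte markers of 5 summed to between 67.5 and 127 TPM in Control WT and between 50.5 and 59.4 TPM in UVB WT rats, and overlapped in P1.hMR rats. The part of these shifts in the changes of Sdf2l1 and Ddit3 was not tested. Of 10 plasma and B cell markers, Mzb1, Cd79b, Ms4a1 and Pou2af1 had a median of 0 TPM, and Tnfrsf17 a median of 0.11 TPM. Jchain and Cd79a were above 0 in all 17 rats, at 0.54 to 1.55 and 0.23 to 1.51 TPM, and Prdm1 at 10.14 to 19.55 TPM. The sum of that list was between 1014 and 1075 TPM in Control WT and between 799 and 847 TPM in UVB WT rats and came mostly from Sdc1, an epithelial gene too, at a median of 961.28 TPM.

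Between P1.hMR and WT rats, no member passed the test. Without UVB, 0 of 10 members were called by limma and 0 had an unadjusted p under 0.05, beside 0.00763% of all tested genes called and 4.03% with such a p. The log2 differences ran from -0.15 for Dnajb9 to 0.04 for Herpud1, with adjusted p = 0.998 from limma for every member. Atf4 lay nearest to the test, at -0.14 (interval from -0.28 to 0.0023, unadjusted p = 0.0534 from limma). Under UVB, 0 members were called beside 0.0229% of all genes, and 2 of 10 had an unadjusted p under 0.05, beside 10.3% of all tested genes. They were Dnajb9, higher in UVB P1.hMR rats by 0.34 (standard error 0.12, unadjusted p = 0.0107, adjusted p = 0.334, limma), and Atf6, higher by 0.18 (standard error 0.08, unadjusted p = 0.0432, adjusted p = 0.461, limma). Averaged over treatments, 0 members were called and 0 had an unadjusted p under 0.05, beside 0.00763% of genes called and 7.61% with such a p, and the differences lay between -0.05 and 0.10. The intervals still allow differences of some size, for example -0.29 to 0.31 for Sdf2l1 under UVB.

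The test of whether the 2 responses to UVB differ, the interaction of genotype and UVB, called 0 members and 0% of all 13105 genes. At an unadjusted p under 0.05 it held 2 members, beside 6.92% of the tested genes. These were again Dnajb9, whose response was 0.49 higher in P1.hMR than in WT rats (standard error 0.16, unadjusted p = 0.00781, adjusted p = 0.704, limma), and Atf6, 0.31 higher (standard error 0.11, unadjusted p = 0.0148, adjusted p = 0.704, limma). For Ddit3 the difference of responses was 0.25 (interval from -0.10 to 0.60) and for Sdf2l1 -0.01 (interval from -0.42 to 0.40). Ddit3 was called in 1 genotype only, and its 2 responses were not shown to differ.

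Within groups, the same rats stood high or low in several chaperones. After the group means were removed, Hspa5 and Hsp90b1 varied together over the 17 rats (r = 0.94, rho = 0.89). Of the 45 pairs of members, 35 had a positive and 10 a negative r, with a median of 0.24. Permutation within groups (100000 resamples, two-sided, adjusted over the 45 pairs) passed 4 pairs by both measures. For Hspa5 and Hsp90b1 the permutation p was 7e-05 for r and 0.00014 for rho (adjusted 0.00315 and 0.0063), and without the 2 rats farthest from the median of Hspa5 the r was 0.89 (permutation p = 0.0007). Hspa5 and Pdia4 had r = 0.84 and rho = 0.78 (permutation p = 0.00176 and 0.00229, adjusted 0.0264 and 0.0343), and Hsp90b1 and Pdia4 r = 0.87 and rho = 0.76 (permutation p = 0.00315 and 0.00505, adjusted 0.0354 and 0.0454). Without the 2 farthest rats these fell to r = 0.64 (permutation p = 0.0702) and r = 0.62 (permutation p = 0.0948), so that both relations of Pdia4 passed the test only with those rats, while r stayed positive. The last pair was Herpud1 and Ddit3, with r = 0.72 and rho = 0.73 (permutation p = 0.00105 and 0.00132, adjusted 0.0236 and 0.0297), and r = 0.62 without the 2 farthest rats (permutation p = 0.0196). The p-values without the 2 farthest rats are unadjusted. The rats left out were chosen for each pair by its first named gene, so they can differ between pairs. After adjustment over the pairs, Hspa5 and Hsp90b1 were the only pair that passed without its farthest rats. Sdf2l1, which works with BiP, had r = 0.42 with Hspa5 (permutation p = 0.12, adjusted 0.341) and Dnajb9 r = 0.16 (permutation p = 0.604, adjusted 0.785).

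**Figure D3:**
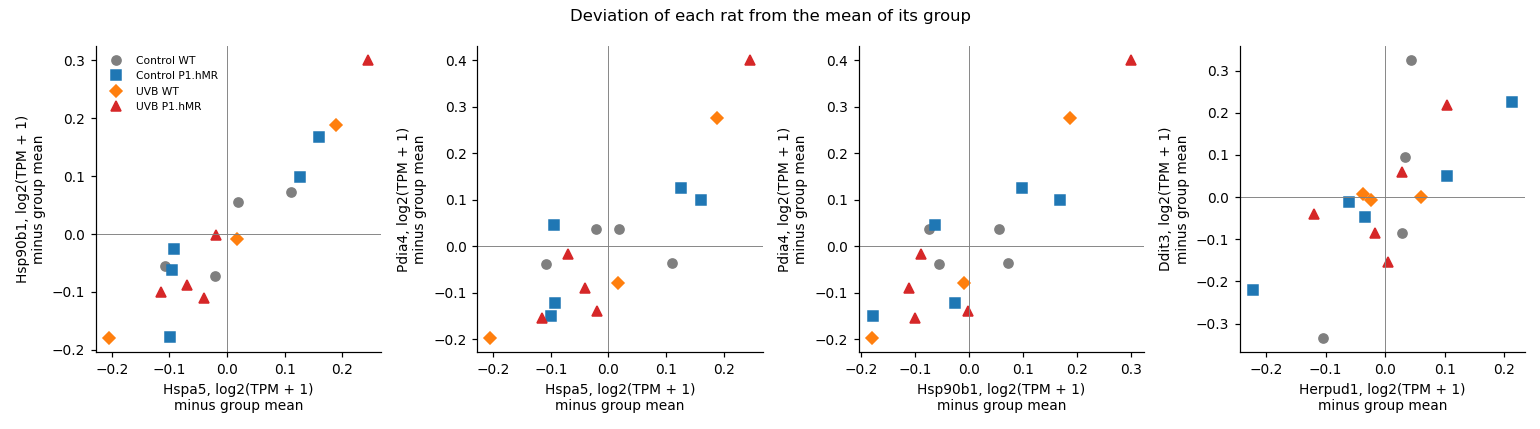
Deviation of each of the 17 rats from the mean of its group in log2(TPM + 1) (both axes) for the 4 pairs of members that passed, with groups marked by colour and shape. UVB P1.hMR rat 4 lies at the upper right of the first 3 panels, at 0.245 for Hspa5, 0.3 for Hsp90b1 and 0.4 for Pdia4, with UVB WT rat 1 next, and UVB WT rat 2 lies at the lower left.

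UVB P1.hMR rat 4 had the highest level of the 17 rats for Hspa5, Hsp90b1, Pdia4 and Sdf2l1, at 392.06, 200.32, 91.01 and 29.25 TPM. UVB WT rat 1 came next for the same 4 genes, at 351.09, 175.38, 84.9 and 28.83 TPM. Their Ddit3 levels did not stand apart, at 26.16 and 25.52 TPM. These 2 rats also had the highest summed fibroblast markers of all rats, 1798.2 and 1978.3 TPM against 943.0 to 1590.7 TPM in the other rats, and the part of this in the chaperone levels was not tested.

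Likeness to Hspa5 was ranked over all 13105 tested genes by Pearson's r over the 17 rats after removal of group means, where the median gene had r = 0.09. Hsp90b1 ranked next to Hspa5 itself, at rank 2, and Pdia4 at rank 7, whereas Xbp1 ranked 801, Sdf2l1 1693 and Atf4 7193. Outside the members and the wider list, the closest genes were LOC498222 (r = 0.879), Xxylt1 (r = 0.86), which encodes an ER xylosyltransferase, Sh3d19 (r = 0.843), Cep290 (r = 0.836) and Tspan11 (r = 0.835). These values are a description over rats that share groups and libraries. Hyou1, an ER chaperone, was the single gene of the wider list among the 20 closest and is named after its value was seen.

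Ratios of TPM between members of one rat do not depend on the scaling of its library, and they are given as a description without a test. Ddit3 amounted to between 9.81% and 14.6% of the Atf4 level in the 9 control rats and to between 6.72% and 8.85% in the 8 UVB rats, with no overlap in either genotype. The medians were 11.4% and 7.88%. How many other gene pairs have ratios that separate as well was not counted. Single genes did so in 26.6% of cases in WT, 27.2% in P1.hMR and 10.8% over all rats. Ddit3 by itself overlapped in P1.hMR rats. Relative to Hspa5, Ddit3 lay between 9.62% and 16.3% in control and between 6.67% and 10.1% in UVB rats, where the ranges overlapped over both genotypes together but not within either. Sdf2l1 amounted to between 4.67% and 7.68% of the Hspa5 level in control rats and to between 6.39% and 8.87% in UVB rats, where the ranges overlapped. The overlap was in P1.hMR rats. In WT rats the ratio lay between 4.7% and 6.31% without and between 7.4% and 8.21% with UVB. Dnajb9 relative to Hspa5 lay between 3.62% and 3.84% in Control WT and between 2.56% and 3.32% in UVB WT rats, but between 2.74% and 4.06% and between 2.69% and 4.49% in the P1.hMR groups.

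**Figure D4:**
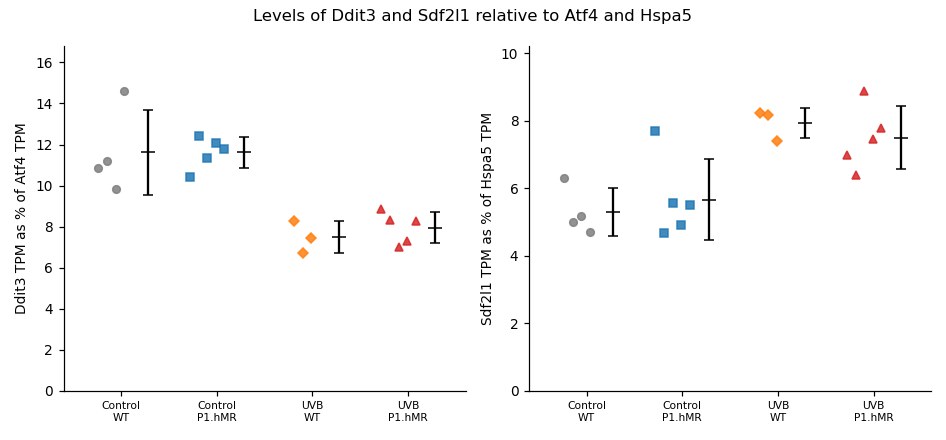
Ddit3 as a percent of Atf4 (left) and Sdf2l1 as a percent of Hspa5 (right), both from TPM, by group; points are rats, and black bars give the mean ± SD. All 8 UVB rats lie below all 9 control rats for Ddit3 relative to Atf4. Sdf2l1 relative to Hspa5 is higher after UVB, without overlap in WT and with overlap in P1.hMR rats. How many other gene pairs separate as well was not counted.

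The rest of the pathway was read from a wider list of 116 UPR genes in 7 roles, of which 110 were matched and tested. For the mean response to UVB, 5 of the 110 were called higher and 4 lower, or 8.18%, beside 9.48% of all tested genes. The median log2 fold change was 0.071. The machinery of the ER stayed under the fold change threshold, and 0 of 16 chaperones and co-chaperones, 0 of 10 disulfide enzymes, 0 of 16 genes of degradation of misfolded proteins and 0 of 19 genes of translocation and traffic were called. Their medians were 0.117, 0.126, 0.051 and 0.12, and 11, 9, 11 and 15 of their genes had a positive value. Without that threshold, at an adjusted p under 0.05 from limma, 11 of the 16 chaperones and co-chaperones passed, 9 of them higher and 2 lower, beside 47.2% of all tested genes, 23.3% higher and 24% lower. Among them were Dnajc3, a co-chaperone of BiP, at a log2 fold change of 0.37 (adjusted p = 4.96e-06, limma), Canx, the lectin chaperone calnexin, at 0.36 (adjusted p = 9.22e-07, limma), and Sil1, a nucleotide exchange factor of BiP, at -0.32 (adjusted p = 0.000641, limma). These 3 had the largest changes of the role and are named after their values were seen. Of the disulfide enzymes 5 passed higher and 1 lower, of the genes of degradation 5 and 3, and of those of translocation and traffic 11 and 0. Over the 110 genes, 44 passed higher and 19 lower. At an unadjusted p under 0.05, limma passed 12, 6, 11 and 12 genes of these 4 roles, beside 54% of all tested genes. In WT rats alone, 1 of the 10 disulfide enzymes was called lower, beside 3.98% of all tested genes called lower in WT. It was Ero1a (log2 fold change -0.56, standard error 0.17, adjusted p = 0.0253, limma), which is named after its value was seen. Ero1a was at -0.35 in P1.hMR rats (adjusted p = 0.0543, limma) and at -0.45 for the mean response (adjusted p = 0.00266, limma). Neither was called, and its responses in the genotypes were not shown to differ (interaction adjusted p = 0.886, limma).

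Most of the calls were among genes of the integrated stress response and ATF4 targets, a response that PERK shares with other kinases. In this role 4 of 29 were called higher and 2 lower, or 20.7%, beside 9.48% of all genes. The largest was Nupr1, a stress-induced nuclear protein, which fell. It averaged 356.0 ± 80.3 TPM in Control WT (SD, n = 4), 125.0 ± 13.1 TPM in UVB WT (SD, n = 3), 323.0 ± 27.6 TPM in Control P1.hMR (SD, n = 5) and 120.0 ± 13.5 TPM in UVB P1.hMR rats (SD, n = 5). Its log2 fold change for the mean response was -1.45 (standard error 0.09, adjusted p = 1.47e-08, limma). Psat1, an enzyme of serine synthesis, rose, with means of 36.4 ± 10.3, 72.8 ± 2.88, 36.1 ± 9.91 and 79.7 ± 11.5 TPM in these groups, in the same order, and a mean response of 1.08 (adjusted p = 5.86e-06, limma). Slc7a11, the cystine transporter, rose too, with means of 1.89 ± 0.468, 4.07 ± 1.64, 2.04 ± 0.555 and 5.08 ± 0.911 TPM and a mean response of 0.89 (adjusted p = 4.94e-05, limma). The other called genes of this role, named after their values were seen, were Shmt2 and Mthfd2, mitochondrial enzymes of one-carbon metabolism, at 0.58 and 0.59, and Vldlr, a lipoprotein receptor, at -0.59. The 4 that rose are known for amino acid supply and one-carbon metabolism, but other genes of amino acid supply in this role were not called. Phgdh was at 0.07 and Slc3a2 at 0.04 (adjusted p = 0.504 and 0.617, limma). Asns and Slc7a5 were at 0.23 and 0.44, under the fold change threshold (adjusted p = 0.0126 and 0.0362, limma).

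Among 14 sensors and their regulators, 1 was called, or 7.14%, beside 9.48% of all tested genes. It was Creb3l3, an ER-bound transcription factor, which fell. Its means were 1.57 ± 0.657, 0.7 ± 0.225, 1.78 ± 0.195 and 0.856 ± 0.203 TPM in that order of groups. Its mean response was -0.58 (adjusted p = 0.000409, limma). It ranged from 0.56 to 1.08 TPM over the UVB rats and from 0.87 to 2.34 TPM in Control WT and 1.49 to 1.93 TPM in Control P1.hMR rats, so it met the filter of 1 TPM mainly through the control rats, where it was high. Without the fold change threshold, at an adjusted p under 0.05 from limma, 7 of the 14 passed, 1 higher and 6 lower. Over all tested genes 47.2% passed, 23.3% higher and 24% lower. For the mean response Ern1, which encodes IRE1, was at -0.21 (adjusted p = 0.0235, limma). Eif2ak3, which encodes PERK, was at -0.05 (adjusted p = 0.309, limma). Both are named after their values were seen. Of 6 genes of cell death under ER stress, 1 was called higher and 1 lower, beside 4.6% of all tested genes called higher and 4.88% lower. Pmaip1, which encodes NOXA, was higher at 0.53 (adjusted p = 0.00044, limma) and Bcl2l11, which encodes BIM, lower at -0.54 (adjusted p = 0.000258, limma). In WT rats Pmaip1 averaged 0.94 ± 0.151 TPM without UVB (SD, n = 4) and 1.84 ± 0.661 TPM with it (SD, n = 3), close to the lower limit of the tested range, and Bcl2l11 averaged 8.71 ± 1.47 and 5.5 ± 1.84 TPM. Between genotypes limma called 0 of the 110 genes without UVB, under UVB and averaged, and 7, 7 and 6 had an unadjusted p under 0.05, beside 4.03%, 10.3% and 7.61% of all tested genes. In the interaction it called 0, and 6 had an unadjusted p under 0.05, beside 6.92% of all tested genes.

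**Figure D5:**
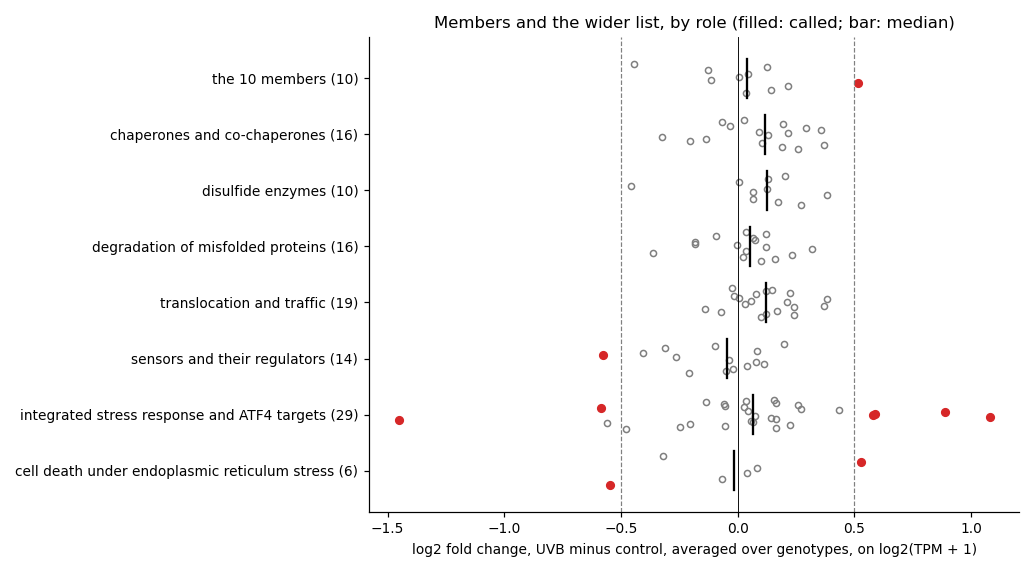
Log2 fold change after UVB, averaged over genotypes, on the log2(TPM + 1) scale (horizontal axis) for the 10 members and the 110 genes of the wider list by role (rows, number of genes in brackets). Filled red points were called, open points were not, black bars are medians, and dashed lines mark the threshold of 0.5; the called genes lie mainly in the integrated stress response row, from Nupr1 at -1.45 to Psat1 at 1.08.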

How the data were processed

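RNA from the MG of 17 rats was sequenced, with 1 library per rat. The authors deposited TPM for 17251 genes, written with a decimal comma and 2 decimals. According to the paper's methods, reads were aligned to rn7 with STAR and quantified with RSEM, while the submitters' processing notes name FastQC, Trimmomatic, DRAGEN and Picard with rn7; which of these made the deposited values is not given in the sources used here. TPM sums ranged from 804378 to 840817 per rat. TPM keeps no depth, so the precision rests on the spread between rats. Rats were grouped by their labels.

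Values were analysed as log2(TPM + 1). A gene was tested if 3 or more rats had 1 TPM or more, which 13105 genes met, in a single fit with the 4 group means as coefficients and a trended prior variance (limma 3.58.1, R 4.3.3), which was tested on simulated data. The p-values are two-sided. DESeq2, used by the authors, needs counts and was not run. Python 3.11.15 with pandas 2.3.3, numpy 2.4.6, scipy 1.17.1 and matplotlib 3.10.9 served for the rest.

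The members and lists were chosen with earlier results of these data known. The named genes were all 10 members, up to 3 called genes per role of the wider list with the largest mean response, and the 5 genes most like Hspa5. List symbols missing from the table were matched through RefSeq symbols, synonyms and gene identifiers, where such a match was unique. Marker lists of melanocytes and the other cell types named were read as summed TPM. The alternatives were a pseudocount of 0.1 TPM, no filter, a filter on a mean of 5 TPM, median-of-ratios scaling, quantile normalization, only the groups compared, no variance trend, sample weights, a replicate block, other fold change thresholds, and each rat left out.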

Additional observations from a re-analysis of the deposited data

Results flagged for a closer look

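Of 30 groups of 4 or 5 rats, 1 for each member and group of that size, 5 had a rat whose gap to its nearest neighbour exceeded Dixon's 95% critical value, and chance flags about 5% of such groups. UVB P1.hMR rat 4 accounted for 3 of them, standing above the other 4 rats of its group for Hspa5 at 392.06 TPM, for Hsp90b1 at 200.32 TPM and for Pdia4 at 91.01 TPM. These 3 genes varied together between rats, so they are not 3 separate observations. Control P1.hMR rat 1 stood above its group for Sdf2l1 at 21.94 TPM, and Control WT rat 3 stood below its group for Herpud1 at 43.63 TPM. The group of 3 UVB WT rats was too small for this rule.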

How the results depend on the processing

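The log2 fold changes of Sdf2l1 and Ddit3 after UVB kept their direction under each alternative run and without each rat, and their calls moved with the threshold. The number of members called was 4 for UVB in WT rats, 3 in P1.hMR rats and 4 for the mean response with no fold change threshold, and 0 in each with a threshold of 1. Over all genes the same settings gave 2820, 5123 and 6192 calls and 219, 300 and 240 calls, against 1036, 1410 and 1243, and a minimum mean of 5 TPM, which tested fewer genes, gave 690, 882 and 790. Between genotypes under UVB, 3 genes were called and between 0 and 4 under the alternatives. With only the groups compared in the fit, 1 member was called in WT rats. Without single rats the number of members called ran from 0 to 2 in WT rats, from 0 to 1 in P1.hMR rats and from 0 to 2 for the mean response. Without the 2 rats farthest from the median of the first gene of each pair, 1 of the 4 pairs of members passed by adjusted p, that of Hspa5 and Hsp90b1. On the forward strand alone, 0 members held ACGTGG. No other scaling, filter or pseudocount changed a count of members called. Deviations of same-numbered rats of different groups had a median correlation of -0.0051 (22 pairs, from -0.1868 to 0.2353). For rats of different numbers the median was 0.008 (85 pairs, from -0.2638 to 0.181). These values cannot exclude a pairing by replicate number. With the replicate block limma called 2, 1 and 1 members and 1019, 1400 and 1251 genes for UVB in WT, in P1.hMR and for the mean response.

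All values that reversed were small and not called, and the cause was not tested. With quantile normalization they were Xbp1 at -0.002 and Atf4 at -0.0304 for UVB in WT rats, Hspa5 at -0.0046 and Xbp1 at -0.0005 for the mean response to UVB, Hsp90b1 at 0.0016 for P1.hMR against WT without UVB, Xbp1 at 0.027 for P1.hMR against WT under UVB, Pdia4 at 0.0143 for P1.hMR against WT averaged over treatments and Sdf2l1 at 0.0014 and Xbp1 at 0.0029 for the interaction of genotype and UVB. With median-of-ratios scaling they were Xbp1 at 0.0222 for P1.hMR against WT under UVB, Pdia4 at 0.0087 for P1.hMR against WT averaged over treatments and Sdf2l1 at 0.0117 and Xbp1 at 0.0121 for the interaction of genotype and UVB. With sample weights they were Pdia4 at -0.0017 and Xbp1 at -0.002 for P1.hMR against WT without UVB and Xbp1 at -0.0065 for P1.hMR against WT averaged over treatments. With the replicate block they were Hsp90b1 at 0.0015 for P1.hMR against WT without UVB, Xbp1 at 0.0084 for P1.hMR against WT under UVB, Ddit3 at -0.0018 for P1.hMR against WT averaged over treatments and Sdf2l1 at 0.0019 for the interaction of genotype and UVB. Leaving out 1 rat turned the sign of 28 values in at least 1 case, over these ranges. For P1.hMR against WT averaged over treatments, Atf6 ran from -0.0052 to 0.061, Ddit3 ran from -0.0534 to 0.0566, Hsp90b1 ran from -0.0139 to 0.0781, Hspa5 ran from -0.0283 to 0.0701, Pdia4 ran from -0.055 to 0.064, Sdf2l1 ran from -0.0254 to 0.0775 and Xbp1 ran from -0.0091 to 0.0176. For P1.hMR against WT under UVB, Atf4 ran from -0.0286 to 0.1155, Hsp90b1 ran from -0.0104 to 0.1735, Hspa5 ran from -0.0001 to 0.1969, Pdia4 ran from -0.1255 to 0.1124, Sdf2l1 ran from -0.0636 to 0.13 and Xbp1 ran from -0.0254 to 0.028. For P1.hMR against WT without UVB, Herpud1 ran from -0.0158 to 0.0929, Hsp90b1 ran from -0.0594 to 0.0272, Pdia4 ran from -0.0157 to 0.053, Sdf2l1 ran from -0.0645 to 0.1412 and Xbp1 ran from -0.0106 to 0.0361. For the mean response to UVB, Herpud1 ran from -0.022 to 0.0324 and Hspa5 ran from -0.0091 to 0.0894. For UVB in P1.hMR rats, Atf6 ran from -0.0038 to 0.0653 and Herpud1 ran from -0.0249 to 0.0838. For UVB in WT rats, Atf4 ran from -0.0368 to 0.1072 and Hspa5 ran from -0.1358 to 0.0611. For the interaction of genotype and UVB, Herpud1 ran from -0.0059 to 0.1028, Pdia4 ran from -0.141 to 0.0969, Sdf2l1 ran from -0.1274 to 0.1067 and Xbp1 ran from -0.0386 to 0.0207. With no depth in TPM, counting error at low levels could not be given.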
